A study of Mus musculus with 16 samples.

Results

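The genes described are Fgf4 and 8 further genes of the FGF and ERK pathway, measured by 24 of the 45101 probe sets of a mouse expression array. The 8 others are the receptors Fgfr1 and Fgfr2, the adaptor Grb2, the feedback inhibitors Dusp6, Spry2 and Spry4, and the transcription factors Etv4 and Etv5. A probe set is a group of short array oligonucleotides that together give 1 intensity for a transcript. A probe set was included when the platform annotation named one of these genes, by its current or former symbol, and no other gene. All 16 arrays were used.

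E14tg2a is a mouse embryonic stem cell line, and every array carried total RNA of 1 preparation from it. For the amplified group (n = 8), each array had its own reaction: a 10 pg dilution, close to what one cell contains, was turned into cDNA and amplified by PCR with the V1V3 method. In the nonamplified group (n = 8), 5 µg of the undiluted RNA was labelled directly. The comparison therefore shows how measurements of these genes differ after amplification from so little RNA. All replicates are technical, so p-values measure only the spread between reactions and arrays of 1 RNA. A level in RNA of a whole culture cannot tell fewer expressing cells apart from less RNA per cell.

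Embryonic stem cells make Fgf4 themselves. The secreted protein binds FGF receptors together with heparan sulfate, the adaptor Grb2 carries the signal to Ras, and a cascade of kinases ends in ERK. In mouse stem cells this pathway readies cells to leave the self-renewing state. ERK activity induces Dusp6, the Sprouty genes and the ETS factors Etv4 and Etv5, and Dusp6 and the Sprouty proteins in turn dampen the pathway. For that reason the transcripts of these feedback genes are widely read as markers of ERK activity.

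The labelled cell type was visible in both groups, with 1 probe set read per marker. Summed over 8 embryonic stem cell markers, intensities lay between 38074 and 40746 on amplified arrays and between 29004 and 30469.8 on nonamplified arrays. Summed over 14 markers of feeder fibroblasts, primitive endoderm and trophoblast, they lay between 692 and 844 on amplified arrays and between 559 and 692 on nonamplified arrays. Left out of these sums is a further tested probe set of Hand1, a trophoblast marker. Its log2 fold change (amplified minus nonamplified) was 7.99, against −0.29 at the Hand1 probe set in the sums. With it in place of the other, the sum of the 14 markers on amplified arrays would have been far higher. The sums thus hold only for the probe set read for each marker. The brightest markers carry such sums, and single markers moved in both directions. Of the 8 embryonic stem cell markers, 4 were called higher, 3 lower and 1 neither (limma, as described below). Nanog, a pluripotency factor, averaged 276 on amplified and 1776 on nonamplified arrays, and Utf1, a chromatin factor of these cells, 8761 on amplified and 1814 on nonamplified arrays. Of the probe sets read for the 14 other markers 7 passed the filter, of which 4 were called higher, 1 lower and 2 neither. Further tested probe sets of a marker could differ, as for Hand1 above and for Eomes of trophoblast (0.76 and −0.59). The embryonic stem cell marker Esrrb, counted as lower at −1.18, ranged from −4.43 to 0.50 over its 3 tested probe sets. Among the primitive endoderm markers, Gata6 averaged 229 on amplified and 73.2 on nonamplified arrays. Dab2 averaged 20.02 on amplified and 51.2 on nonamplified arrays at a probe set that did not pass the filter. The 2 tested probe sets of Dab2 had log2 fold changes of 0.10 and 0.34. None of the 22 markers had a mean at the lowest listed intensity of 1. Whether these markers have a part in the results below was not tested. Median intensities were 33.9 to 36.7 on amplified arrays and 49.8 to 53.9 on nonamplified arrays. No detection calls were used here, and precision is limited by how many arrays there are.

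For these 9 genes, more tested probe sets were lower after amplification than higher. Differences are given as log2 fold changes, amplified minus nonamplified, of log2(intensity + 16), which understates the change of dim probe sets, and a call is a limma adjusted p under 0.05 (2-sided, Benjamini-Hochberg over 27022 probe sets). Of the 24 probe sets, 20 passed a filter on low values, which 60% of all non-control probe sets passed, with at least 1 for each of the 9 genes, and 4 did not. Of the 20, 11 fell, 1 rose and 8 were not called. Over all 27022 tested probe sets, 57.5% were called, 32.8% lower and 24.7% higher, against 55% lower and 5% higher for the 20 of these genes. The median log2 fold change was −1.32 for the 20 probe sets and −0.17 for all tested ones. Without the filter, 15 of the 24 probe sets were called, 14 lower and 1 higher. Of all 45037 probe sets 50.1% were called then, and 38% of these calls were higher. All 11 tested probe sets that fell did so by at least 2-fold, where the share over all tested probe sets was 22.1%. The filter took the mean over all 16 arrays, so a probe set could pass through bright nonamplified values alone. Among those that fell, amplified medians lay under the filter intensity of 33.7 for Dusp6 (26.2), Fgfr2 1420847_a_at (28.3) and Etv5 1420998_at (23.1). Every tested probe set of Grb2, Dusp6, Spry2 and Etv5 fell. Some but not all fell for Fgf4, Fgfr2 and Spry4, none was called for Fgfr1, and the 1 of Etv4 rose, a direction that turned with scaling on the hybridization controls (−0.092, not called).

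**Figure D1:**
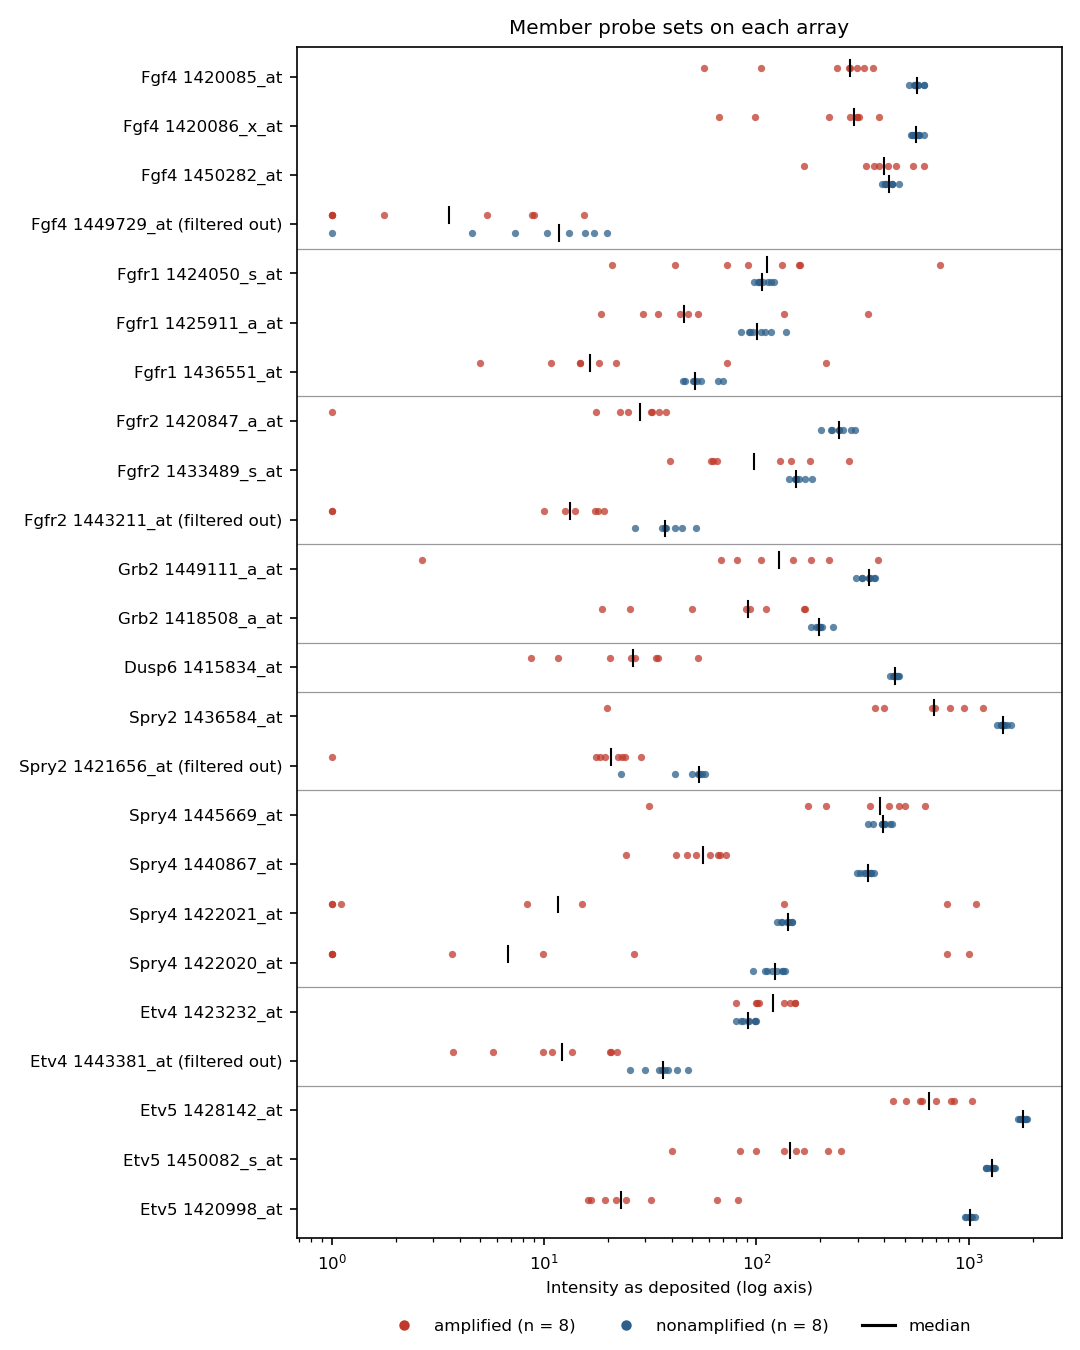
Intensity as deposited (log axis) of each of the 24 probe sets, with 1 point per array for the amplified arrays (red, above) and the nonamplified arrays (blue, below) and a black bar at the median. Nonamplified points lie close together except at dim probe sets, such as Fgf4 1449729_at and Spry2 1421656_at (22.9 to 57.0). Amplified points spread widely, most of them to the left of the nonamplified ones.

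These counts were set against other scalings of the arrays to each other. With the values as deposited, 43% of all calls were higher. Quantile normalization gave a share of 50.7%, and scaling on the brighter 50% of probe sets gave 55.6%. Centring arrays on their medians gave 63.2%, and scaling on the hybridization controls gave 22.5%. The median log2 difference over all tested probe sets was −0.17 as deposited and −0.029, 0.075, 0.24 and −0.59 under these scalings, in the same order. Of the 20 tested probe sets of the 9 genes, 12 fell after quantile normalization, 11 with scaling on the brighter 50%, 10 with arrays centred on their median and 14 when scaled on the hybridization controls.

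Fgf4, the ligand, was measured by 3 tested probe sets that gave different fold changes for 1 gene. The probe set 1420085_at had a lowest, median and highest intensity of 56.6, 275 and 356 on amplified arrays, against 524, 568 and 617 on nonamplified arrays. The probe set 1420086_x_at gave nearly the same values, with 66.4, 287 and 376 on amplified and 534, 567 and 614 on nonamplified arrays. The groups did not overlap for either of them. The annotation derives both from the same sequence record. Their log2 fold changes were −1.36 (SE 0.284, limma adjusted p = 5.86e-04) and −1.34 (SE 0.275, limma adjusted p = 5.27e-04).

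The remaining tested probe set of Fgf4, 1450282_at, is annotated from another record. It had a lowest, median and highest intensity of 167, 398 and 614 on amplified arrays, against 392, 420.1 and 468 on nonamplified arrays. The groups overlapped, and the log2 fold change was −0.12 with a 95% interval of −0.53 to 0.28 (limma adjusted p = 0.607). Leaving out each array in turn moved it between −0.22 and 0.037. It was called lower under quantile normalization (−0.41, limma adjusted p = 0.0311), and stood at 0.28 with arrays centred on their median and 0.12 with scaling on the brighter 50%, without a call in either. The log2 fold changes of 1450282_at and 1420085_at differed by 1.24 on the same arrays, with a 95% interval of 0.45 to 2.02 (limma on the differences between probe sets of a gene, adjusted p = 0.00972).

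Single reactions were not low at both probe sets alike. Amplified replicates 7 and 2 were the lowest of their group at 1420085_at, with 56.6 and 105, and within the nonamplified range at 1450282_at, with 416 and 454. Amplified replicate 3 was the lowest of its group at 1450282_at, with 167, while its 274 at 1420085_at was close to its group's median. The probe set 1449729_at, from the same record as 1420085_at, did not pass the filter and measured at most 15.4 on amplified and at most 19.8 on nonamplified arrays. Tested without the filter, it was not called (−0.34, limma adjusted p = 0.125).

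**Figure D2:**
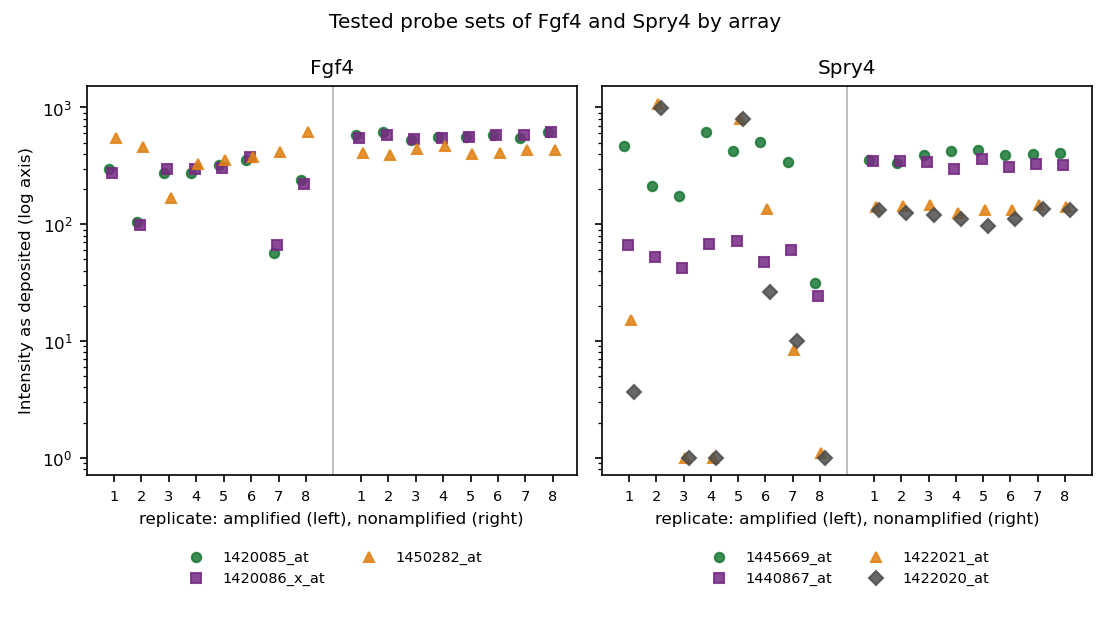
Intensity as deposited (log axis) of the tested probe sets of Fgf4 (left panel) and Spry4 (right panel) on each array, with amplified replicates left of nonamplified replicates in each panel. Nonamplified arrays form flat rows, while 2 probe sets of Spry4 range from the lowest listed intensity of 1 to 1077 and 999 among amplified arrays.

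Of the receptors, Fgfr1, the main FGF receptor of these cells, had no tested probe set that was called, and its amplified values scattered on both sides of the nonamplified ones. At 1424050_s_at the lowest, median and highest intensities were 20.9, 112 and 732 on amplified arrays, against 97.9, 106 and 121 on nonamplified arrays. The log2 fold change of 0.039 had a 95% interval of −0.89 to 0.97 (limma adjusted p = 0.948). It was negative without amplified replicate 8 (−0.33), and −0.38 when scaled on the hybridization controls, without a call in either.

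The other Fgfr1 probe sets, 1425911_a_at and 1436551_at, had log2 fold changes of −0.66 and −0.67 (limma adjusted p = 0.141 and 0.153). Amplified arrays ranged from 18.5 to 334 at 1425911_a_at and nonamplified arrays from 84.9 to 138. At 1436551_at they ranged from 5.01 to 212 on amplified and from 45.1 to 69.8 on nonamplified arrays. The lack of a call rested on 1 reaction in each case. Without amplified replicate 8, 1425911_a_at was called lower (−0.98, limma adjusted p = 0.0023), and without amplified replicate 4, 1436551_at was (−1.01, limma adjusted p = 0.00155). Both were also called lower when scaled on the hybridization controls (−1.08 and −1.09). The log2 fold changes of 1425911_a_at and 1424050_s_at differed by −0.70 (limma on differences, adjusted p = 0.0214), a call that was lost with weights per group (adjusted p = 0.0949). The difference of 1436551_at from 1424050_s_at, −0.71, was not called (adjusted p = 0.246), but was without amplified replicate 4 (−1.12, adjusted p = 0.00926, limma on differences for both).

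Fgfr2, a receptor known from primitive endoderm and trophoblast, fell at 1 of 2 tested probe sets. At 1420847_a_at the lowest, median and highest intensities were 1, 28.3 and 37.5 on amplified arrays, against 203, 244 and 293 on nonamplified arrays. Every amplified array lay below every nonamplified one, and the log2 fold change was −2.73 with an SE of 0.195 (limma adjusted p = 3.06e-09). At 1433489_s_at, a probe set of the type that can match more than 1 transcript, the values were 39.4, 97.2 and 273 on amplified arrays and 143, 154 and 183 on nonamplified arrays. These groups overlapped, with a log2 fold change of −0.57 (95% interval −1.16 to 0.029, limma adjusted p = 0.0971). Without amplified replicate 8 this probe set was called lower (−0.75, limma adjusted p = 0.012), and likewise when scaled on the hybridization controls (−0.98). The log2 fold changes of the Fgfr2 probe sets differed by 2.17 (95% interval 1.41 to 2.93, limma on differences, adjusted p = 7.63e-05). The probe set 1443211_at did not pass the filter, with at most 19.2 on amplified and 26.7 to 51.7 on nonamplified arrays. Tested without the filter, it was called lower (−1.03, limma adjusted p = 5.03e-05).

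Grb2, the adaptor that links activated receptors to the Ras exchange factor Sos, fell at both of its probe sets. At 1449111_a_at the lowest, median and highest intensities were 2.66, 128 and 374 on amplified arrays, against 293, 339 and 362 on nonamplified arrays. Of the 8 amplified arrays, 7 lay below all nonamplified ones and 1 above. At 1418508_a_at the values were 18.7, 91.6 and 170.2 on amplified arrays and 181, 198 and 229 on nonamplified arrays, without overlap. The log2 fold changes were −1.49 (SE 0.443, limma adjusted p = 0.00861) and −1.24 (SE 0.311, limma adjusted p = 0.00271). They differed by 0.25, with a 95% interval of −0.81 to 1.31 (limma on differences, adjusted p = 0.696). Although both probe sets come from 1 record, single reactions differed between them. Amplified replicate 6 was the lowest of its group at 1449111_a_at, with 2.66, and above its group's median at 1418508_a_at, with 93.4. Amplified replicate 2 was above its group's median at 1449111_a_at, with 181, and among the lowest at 1418508_a_at, with 25.5.

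Among the feedback inhibitors, Dusp6, the phosphatase that inactivates ERK, fell, with each amplified array below all nonamplified ones. Its only probe set, 1415834_at, measured 8.66, 26.2 and 52.9 (lowest, median and highest) on amplified arrays, against 428, 450.5 and 472 on nonamplified arrays. The groups were far apart, and the log2 fold change was −3.52 (SE 0.17, limma adjusted p = 2.12e-11). Within an array, its median percentile among all probe sets was 41.5 on amplified and 90.5 on nonamplified arrays, a measure that does not depend on the scaling of arrays.

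Spry2, a Sprouty protein that blocks signalling between receptor and ERK, fell at its tested probe set 1436584_at. It measured 19.8, 686 and 1170.5 on amplified arrays, against 1360, 1450 and 1574 on nonamplified arrays, and the groups did not overlap. The log2 fold change was −1.63 (SE 0.539, limma adjusted p = 0.0163). It did not pass with each array centred on its median (−1.22, limma adjusted p = 0.0598). Amplified replicate 1 lay far below the others, at 19.8 against 363 for the next lowest, and without it the log2 fold change was −1.10, still called. The other probe set of Spry2, 1421656_at, did not pass the filter, with a median of 20.8 on amplified and 53.5 on nonamplified arrays. Tested without the filter, it was called lower (−0.89, limma adjusted p = 5.87e-04).

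Spry4, a second Sprouty gene, had 4 tested probe sets and the widest scatter of the 9 genes. At 1440867_at the lowest, median and highest intensities were 24.3, 56.3 and 71.7 on amplified arrays, against 299, 335 and 359.7 on nonamplified arrays. This probe set fell without overlap, and its log2 fold change was −2.35 with an SE of 0.139 (limma adjusted p = 2.75e-10). At 1445669_at the values were 31.3, 382 and 620.2 on amplified arrays and 335, 396 and 435 on nonamplified arrays. The groups overlapped there, and the log2 fold change was −0.48 (95% interval −1.35 to 0.39, limma adjusted p = 0.337). The fold changes of these probe sets differed by −1.87 (95% interval −2.53 to −1.20, limma on differences, adjusted p = 8.81e-05).

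The remaining Spry4 probe sets, 1422021_at and 1422020_at, come from 1 record and were either bright or nearly dark on each amplified array except replicate 6. In amplified replicates 1 to 8, 1422021_at measured 15.0, 1077, 1, 1, 789.7, 136, 8.32 and 1.11, against 126 to 147 on the nonamplified arrays. In the same order, 1422020_at measured 3.67, 999, 1, 1, 790.5, 26.4, 9.90 and 1 on amplified arrays, against 96.6 to 136 on the nonamplified arrays. Amplified replicates 2 and 5 were thus above every nonamplified array at both probe sets, and replicates 1, 3, 4, 7 and 8 were below every nonamplified array. Amplified replicate 6 lay within the nonamplified range at 1422021_at, with 136, and below it at 1422020_at, with 26.4.

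Neither of these Spry4 probe sets was called. The log2 fold changes were −1.16 (95% interval −2.97 to 0.64, limma adjusted p = 0.261) and −1.30 (95% interval −3.09 to 0.50, limma adjusted p = 0.206). Without amplified replicate 2 both were called lower (−1.73 and −1.90, limma adjusted p = 0.0468 and 0.0245), and without amplified replicate 5 1422020_at was (−1.85, limma adjusted p = 0.0365). All 8 amplified arrays carried dilutions of 1 RNA.

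The ETS factors, which ERK signalling induces, were called in opposite directions at tested probe sets as deposited. The call of Etv4 was lost under several alternatives. Etv5 was called lower at all of its probe sets, by widely different amounts. At 1428142_at the lowest, median and highest intensities were 441, 654 and 1037 on amplified arrays, against 1715, 1794 and 1887 on nonamplified arrays. At 1450082_s_at they were 39.9, 145 and 251 on amplified and 1203, 1288 and 1333 on nonamplified arrays. At 1420998_at they were 16.2, 23.1 and 82.0 on amplified and 957, 1018 and 1067 on nonamplified arrays.

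None of the 3 groups of amplified Etv5 values overlapped its nonamplified group. The log2 fold changes were −1.40 (SE 0.146), −3.16 (SE 0.25) and −4.47 (SE 0.212) in that order, with limma adjusted p = 3.59e-07, 1.15e-08 and 1.68e-11. Relative to 1428142_at, the log2 fold change differed by −1.76 at 1450082_s_at (95% interval −2.16 to −1.35) and by −3.07 at 1420998_at (95% interval −3.60 to −2.54). Both differences passed the test (limma on differences, adjusted p = 7.78e-07 and 2.45e-08). The annotation derives 1450082_s_at and 1420998_at from 1 record.

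Etv4 was the only one of the 9 genes called higher with the values as deposited, and by little. Its tested probe set 1423232_at measured 80.6, 119 and 152 on amplified arrays, against 79.8, 91.4 and 99.2 on nonamplified arrays. Of the 8 amplified arrays, 7 lay above all nonamplified ones. The log2 fold change was 0.33 (SE 0.12, limma adjusted p = 0.028). It did not pass without amplified replicate 2, 3, 5 or 7 (0.29, 0.30, 0.28 and 0.28, limma adjusted p = 0.0526, 0.0502, 0.0546 and 0.0549) or without nonamplified replicate 1 (0.30, limma adjusted p = 0.0532). It was −0.092 when scaled on the hybridization controls (limma adjusted p = 0.657) and weights per group also left it without a call (limma adjusted p = 0.0862). The probe set 1443381_at did not pass the filter and had lower amplified values, 3.73 to 22.1, than the 25.3 to 47.5 of nonamplified arrays. Tested without the filter, 1443381_at was called lower (−0.86, limma adjusted p = 9.95e-05) and 1423232_at higher (0.33, limma adjusted p = 0.0334).

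**Figure D3:**
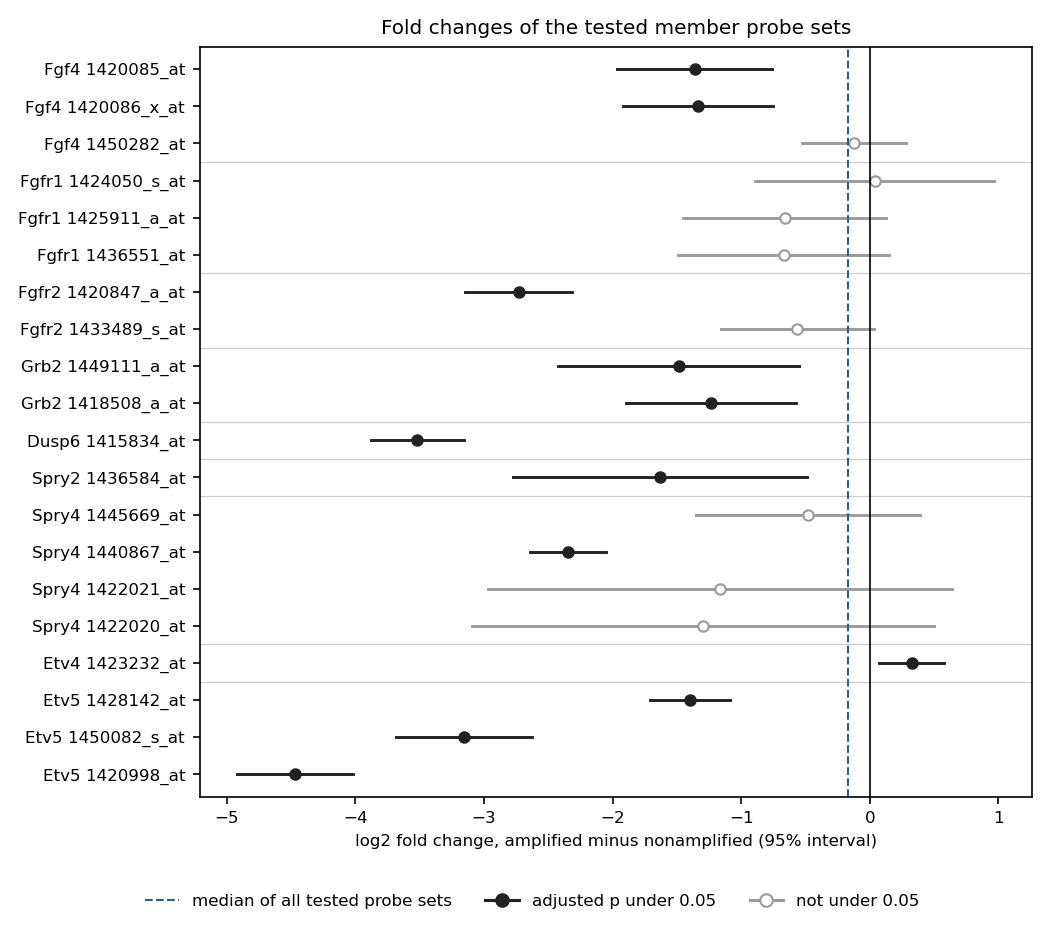
Log2 fold change, amplified minus nonamplified, of each of the 20 tested probe sets, with its 95% interval. Filled points passed the test, and the dashed line marks the median of all tested probe sets at −0.17. The Etv5 probe sets span −4.47 to −1.40, and Etv4 alone lies to the right of 0 with a filled point, a side it left with scaling on the hybridization controls (−0.092).

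Probe sets of 1 gene gave different fold changes in 6 of 11 such differences within these genes, and in 54.7% of 9169 over all genes. The 6 lie in Fgf4, Fgfr1, Fgfr2, Spry4 and Etv5, the last with 2. Each such test sets both probe sets of a gene against each other on the same arrays.

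Between nonamplified arrays the tested probe sets of these genes varied little. The SD over the 8 arrays of a group, on the log2 scale, had a median of 0.83 on amplified and 0.089 on nonamplified arrays over the 20 tested probe sets. Over all tested probe sets the medians were 0.51 on amplified and 0.13 on nonamplified arrays. The SD was larger on amplified arrays for all 20, where 90.4% of all tested probe sets had this. The amplified SD ranged from 0.30 for Etv4 1423232_at to 2.55 for Spry4 1422021_at. Dusp6, Spry4 1440867_at and Etv5 1428142_at, which all fell, had an amplified SD of 0.48, 0.37 and 0.40, although the added 16 compresses the spread of dim values such as the 8.66 to 52.9 of Dusp6.

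**Figure D4:**
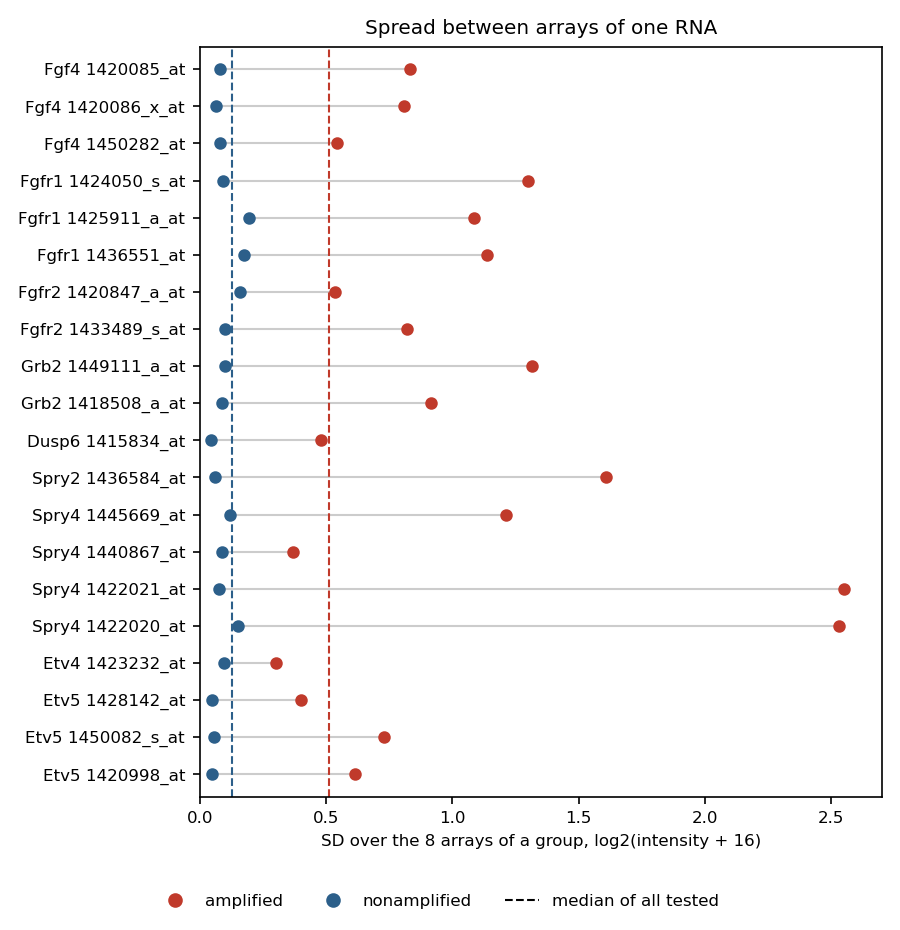
SD of log2(intensity + 16) over the 8 amplified arrays (red) and the 8 nonamplified arrays (blue) for each of the 20 tested probe sets, with dashed lines at the medians over all tested probe sets. Every red point lies to the right of its blue point, farthest for the Spry4 probe sets 1422021_at and 1422020_at at 2.55 and 2.53.

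Low values were counted against each array's own distribution. Of 160 combinations of a tested probe set and an array in each group, 15 lay under the 25th percentile of the array on amplified arrays and 0 on nonamplified arrays. These shares, 9.38% and 0%, compare with 10.5% of amplified and 3.65% of nonamplified combinations over all tested probe sets. Of the 15, 5 came from Spry4 1422020_at and 4 from Spry4 1422021_at. The median percentile of the 20 probe sets was 63.9 to 79.6 on amplified arrays and 86.1 to 87.7 on nonamplified arrays. Each amplified array had between 14 and 18 of the 20 probe sets (70% to 90%) below all nonamplified arrays and between 2 and 6 (10% to 30%) above all of them. Over all tested probe sets, 45.2% to 47.9% lay below and 37% to 40.3% above on an amplified array. The groups did not overlap for 10 of the 20 (50%), against 33.6% of all tested probe sets.

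Other genes of the FGF and ERK pathway moved in both directions. Of 68 genes listed, 59 had a probe set and 56 passed the filter, each gene being read from the probe set with its highest nonamplified mean. Of these, 10 rose, 15 fell and 31 were not called. The shares were 17.9% higher and 26.8% lower, against 23.8% and 29.9% over 13660 genes, where 53.7% were called. The median log2 fold change was −0.18 for the list and −0.15 for all genes. The balance turned with the scaling. The list had 15 higher and 10 lower with arrays centred on their median, 12 and 12 with scaling on the brighter 50%, 9 and 16 under quantile normalization, and 8 and 27 when scaled on the hybridization controls.

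The heparan sulfate group, whose members carry or build the sugar chains that FGFs need, had 4 lower, 0 higher and 4 not called of 8 tested. With arrays centred on their median only Gpc3 of them was still called, and 6 of the 8 were lower when scaled on the hybridization controls. Gpc3, a glypican, measured 27.7 ± 29.6 on amplified and 177 ± 10.3 on nonamplified arrays (SD, n = 8 each), with a log2 fold change of −2.46 (limma adjusted p = 1.37e-05). Of the 6 other ligands tested, 1 rose and 0 fell as deposited, 3 rose and 0 fell under quantile normalization and with arrays centred on their median, and 1 rose and 3 fell when scaled on the hybridization controls. The 1 called as deposited was Fgf8, with 659 ± 161 on amplified and 277 ± 40.4 on nonamplified arrays (SD, n = 8 each; log2 fold change 1.17, limma adjusted p = 5.21e-06). Of the 4 other receptors 1 rose and 1 fell, or 1 and 2 when scaled on the hybridization controls.

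Among 7 adaptors 1 rose and 2 fell, against 3 and 2 with arrays centred on their median and 1 and 3 when scaled on the hybridization controls. Gab1, a docking protein, rose (log2 fold change 0.92, limma adjusted p = 3.98e-06), but not under quantile normalization (0.15, limma adjusted p = 0.308), and another of its 3 tested probe sets had −5.26. Crkl, an adaptor with SH2 and SH3 domains, fell (log2 fold change −2.33, limma adjusted p = 8.78e-07), and the highest of its 3 tested probe sets had −0.69. Of 5 genes of the Ras group 2 rose and 1 fell, or 1 and 1 under quantile normalization. Eras, a Ras-like protein of embryonic stem cells, averaged 2320.2 on amplified and 968 on nonamplified arrays (log2 fold change 1.13, limma adjusted p = 3.27e-04), without a call under quantile normalization (0.38). Nras, a Ras protein, averaged 30.2 on amplified and 607 on nonamplified arrays, the lowest log2 fold change of the list at −3.84 (limma adjusted p = 2.17e-11), and the highest of its 3 tested probe sets had −0.54.

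Among 6 kinases 2 rose and 1 fell, against 1 and 1 under quantile normalization and 1 and 2 when scaled on the hybridization controls. Map2k1 and Map2k2, the kinases that activate ERK, had log2 fold changes of 0.64 and 1.71 (limma adjusted p = 0.00129 and 1.66e-04). Under quantile normalization Map2k1 was at −0.083, and on the hybridization controls at 0.22, without a call in either. Of 10 further feedback genes 1 rose, 2 fell and 7 were not called, while 0 rose and 2 fell under quantile normalization and 1 rose and 4 fell when scaled on the hybridization controls. Dusp9, an ERK phosphatase, fell (log2 fold change −2.24, limma adjusted p = 5.5e-07), and the highest of its 3 tested probe sets had −0.13. Pebp1, an inhibitor of Raf, averaged 6529 on amplified and 3692 on nonamplified arrays (log2 fold change 0.81, limma adjusted p = 1.12e-07), and had −0.057 under quantile normalization without a call. Of 10 further genes in the target group 2 rose and 4 fell. These counts were 3 and 2 with arrays centred on their median, 2 and 2 with scaling on the brighter 50%, and 1 and 6 when scaled on the hybridization controls. The gene that rose most, Cic, is a repressor that ERK inactivates and not an induced target, with 2066 ± 507 on amplified and 514 ± 21.9 on nonamplified arrays (SD, n = 8 each; log2 fold change 1.93, limma adjusted p = 2.7e-09).

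**Figure D5:**
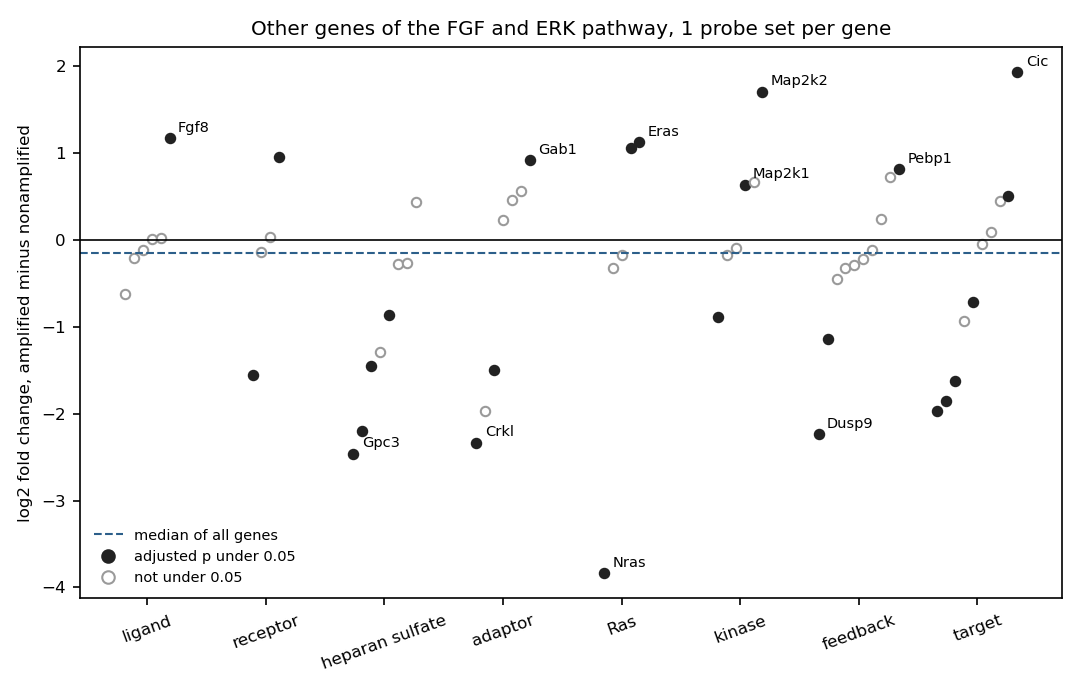
Log2 fold change, amplified minus nonamplified, of 56 further genes of the FGF and ERK pathway by role, with 1 probe set per gene. Filled points passed the test, named genes are labelled, and the dashed line marks the median of all genes at −0.15. Points lie on both sides of the line in every role.

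By root mean square distance of log2 values over the 16 arrays, the genes closest to Fgf4 at 1420085_at were Mphosph10, Farsa and Cdc123, with distances of 0.44, 0.48 and 0.48. For Dusp6 they were Cdca2, Stat3 and Msl2, with distances of 0.34, 0.38 and 0.38. Cdca2 averaged 26.2 on amplified and 453 on nonamplified arrays, and Stat3 29.5 on amplified and 395 on nonamplified arrays. The likeness holds for 1 probe set of each gene. The highest log2 fold change among tested probe sets was 0.081 for Cdca2, −0.089 for Stat3, 0.38 for Msl2 and 1.99 for Farsa. It was −0.78 for Mphosph10, and Cdc123 had only 1 tested probe set (−1.61).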

How the data were processed

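The authors' deposited table gives each probe set a linear intensity on each array, never below 1. Per the labels' protocols, RNA was column-purified and cRNA labelled with the Affymetrix one-cycle assay. Neither the summarising software nor the scaling of arrays is given in the sources here. Gene names came from the platform annotation, updated through gene identifiers of the RefSeq table of GRCm38.p6. Of 45101 probe sets, 34945 had 1 symbol, 932 several and 9160 none here, and 64 controls were left out. Of 68 further pathway genes, 9 are not analysed here.

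Values were used as deposited and transformed as log2(intensity + 16). Probe sets with a mean log2 value above the 40th percentile (an intensity of 33.7) were tested, which leaves 27022. The groups, taken from sample titles, were compared in limma 3.58.1 (R 4.3.3; lmFit, then eBayes) without covariates. Differences between probe sets of a gene were fitted the same way, against its probe set of the highest nonamplified mean. The comparison was tested on simulated data for 27022 probe sets, 200 of them shifted. Of log2 shifts by 1, 51% were recovered, and of shifts by 2, 83%. Wrong directions numbered 0, and calls among the 26822 unshifted probe sets came to 0.119%. For differences between probe sets, 71.4% of 70 changes of 2 among 9169 were called, with 0.277% of 9025 unchanged ones. Unshifted probe sets far outnumbered shifted ones, so these small shares are not the share of false calls among all calls. In the data 57.5% of probe sets were called, far more than were shifted, so the simulated rates need not hold there.

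The members and lists were chosen with earlier results of these data known. Named were all members, the 4 further pathway genes with the largest positive, the 4 with the largest negative change and the 4 of the highest nonamplified mean, and the 3 genes closest in pattern to Fgf4 and to Dusp6. Replicate numbers did not pair the arrays: correlations of same-numbered deviations were −0.0078 to 0.0176 over 8 pairs. No probe or protein sequences and no scan dates were used. Plots used matplotlib 3.10.9 (Python 3.11.15).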

Additional observations from a re-analysis of the deposited data

Results flagged for a closer look

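In 5 of 48 groups of 8 arrays, 1 array lay far from the others by Dixon's criterion, which chance meets in about 1 in 20 groups. Fgfr2 1420847_a_at was at 1 in amplified replicate 4, with 17.6 as the next lowest of that group. Spry2 1436584_at was at 19.8 in amplified replicate 1, with 363 next. The filtered probe set Spry2 1421656_at was at 1 in amplified replicate 3, with 17.7 next, and at 22.9 in nonamplified replicate 1, with 41.2 next. Spry4 1445669_at was at 31.3 in amplified replicate 8, with 176 next. Of these 5, 4 were amplified arrays, each a different reaction.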

How the results depend on the processing

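Over 11 alternatives besides leaving out arrays, the 20 log2 fold changes kept their side of the threshold in 208 of the 215 values that could be computed, and each exception is given beside its result. The sign turned in 5 values of 3 probe sets, and among called ones only for Etv4 (−0.092 scaled on the hybridization controls). With the replicate number as a block, 12 member probe sets were called, 11 lower and 1 higher, as without it, and no member's call changed. Member probe sets called higher numbered 0 when scaled on the hybridization controls and 0 with weights per group. The further pathway genes called numbered 8 higher and 27 lower on the hybridization controls, and 15 higher and 10 lower with arrays centred on their median. All probe sets called numbered 10148 with a 60th percentile filter, which tests fewer. Differences called between probe sets of a member numbered 3 without types _x_at and _s_at, which leaves 7 to test. Low values on amplified arrays numbered 8 under the 10th and 32 under the 40th percentile. Leaving out each array gave 11 to 14 member probe sets called, 11 to 13 lower and 0 to 1 higher. Without detection calls, signal and background cannot be told apart for dim probe sets.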
